A study of Plecoglossus altivelis with 9 samples.

Results

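A set of 100 array probes rose at each increase of the LECT2 dose in ayu macrophages, with a higher mean signal at 0.5 μg/ml than at 0 μg/ml and a higher one again at 5 μg/ml. Of the 49077 probes of the array, 14718 were well above background on all 9 arrays and free of outlier marks, and these are called expressed probes here. Each signal was taken as the log2 of the processed spot intensity minus the 75th percentile of its array, and is called the normalized log2 intensity. The first step is the mean at 0.5 μg/ml minus the mean at 0 μg/ml, and the second step the mean at 5 μg/ml minus the mean at 0.5 μg/ml. Both steps were at least 0.3 for 545 expressed probes (3.70%), and the 100 of them with the largest smaller step are the members. The members were thus chosen by their measured steps. Their steps and all dose comparisons made with them are a description. Where limma calls are counted among them, the choice of the members favours those counts, and no p of a member is given.

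The cells were adherent cells of the head kidney of ayu (Plecoglossus altivelis), labelled as macrophages, that had been given LECT2 at 0, 0.5, or 5 μg/ml with an exposure of 3.5 h. All groups were kept in the same serum-containing medium with antibiotics. Each dose has 3 arrays, from independent experiments on different fish according to the submitters. One array holds 1 RNA sample labelled with Cy3. The file headers name 2 scans, the first with 2 arrays of each dose and the second with 1 array of each dose (both arrays numbered 2 at 0 and 0.5 μg/ml, and the third array at 5 μg/ml). Per array, 16531 to 24887 probes were well above background and none was saturated. The purity of the adherent cells could not be checked with marker genes, since the deposited files number the probes without naming a gene for any of them. For the same reason the members are described as probes and not by function, and only the 2 with the largest smaller step are named. A higher signal of a probe can come from more cells of a type or from more RNA per cell. A lower one can come from fewer such cells or from less RNA per cell. Bulk RNA cannot tell these apart.

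LECT2, leukocyte cell-derived chemotaxin 2, is a secreted protein made mainly by the liver and first known as an attractant of neutrophils. In mice it activates macrophages through a C-type lectin receptor. The head kidney is the main blood-forming organ of teleost fish and a usual source of their macrophages. Macrophages change the transcription of many genes within hours of a stimulus, and a response that grows with dose can be told from one that is complete at a low dose or needs a high dose.

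The probe with the largest smaller step was A_1000000_P0000042. Its normalized log2 intensity was 4.47, 2.53, and 4.04 in replicates 1 to 3 at 0 μg/ml. It was 6.62, 4.17, and 6.81 at 0.5 μg/ml and 10.05, 9.24, and 9.51 at 5 μg/ml. The 3 arrays at 5 μg/ml lay above all others, while replicate 2 at 0.5 μg/ml lay between the arrays at 0 μg/ml. The means were 3.68 ± 1.02 at 0 μg/ml, 5.87 ± 1.47 at 0.5 μg/ml, and 9.60 ± 0.42 at 5 μg/ml (SD, n = 3 each). The first step was 2.19, or 4.56-fold, and the second 3.73, or 13.3-fold, each with a standard error of 0.69 in limma. The mean at 5 μg/ml was thus 60.5-fold that at 0 μg/ml. In processed intensity, the same probe read 198172, 112917, and 203000 at 5 μg/ml, against 3748, 962, and 2724 at 0 μg/ml. In the authors' table of values it stood at the highest value of the column on the 3 arrays at 5 μg/ml, and there its second step was 2.48.

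The next probe was A_1000000_P0020201, with 3.63, 1.07, and 3.63 at 0 μg/ml. It had 5.12, 2.73, and 5.88 at 0.5 μg/ml and 7.40, 6.46, and 7.20 at 5 μg/ml. Here too the 3 arrays at 5 μg/ml were above the other 6, and replicate 2 was the lowest array at both 0 and 0.5 μg/ml. The first step was 1.80 (3.48-fold) and the second 2.45 (5.45-fold), each with a standard error of 0.84. Within the first scan the 2 steps were 1.87 and 1.43, and on the 3 arrays of the second scan they were 1.66 and 4.48. For A_1000000_P0000042 they were 2.46 and 2.93 in the first scan and 1.64 and 5.34 in the second. Both probes therefore rose at both steps in each scan, with the larger second step in the second scan.

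**Figure D1:**
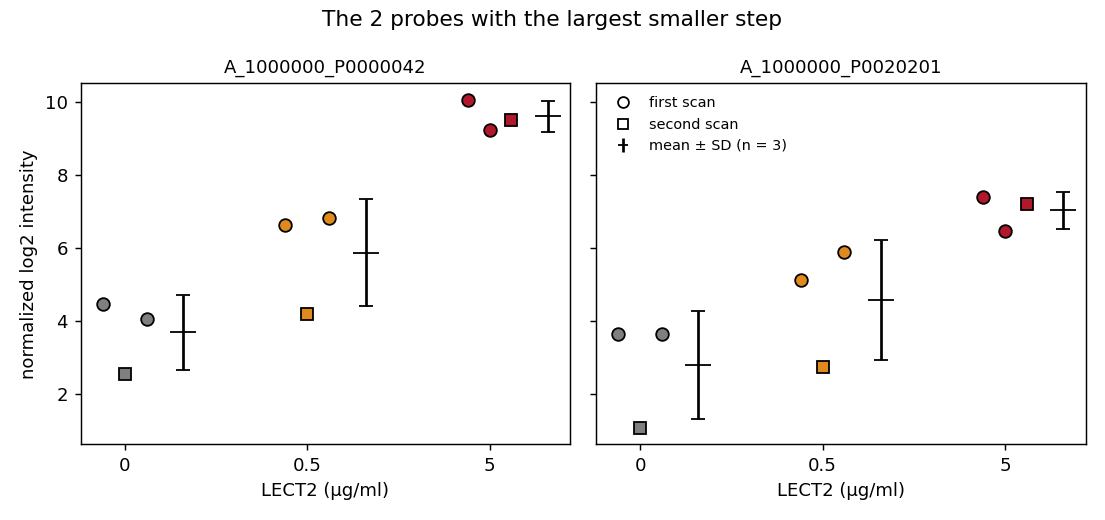
Normalized log2 intensity (y axis) of A_1000000_P0000042 (left) and A_1000000_P0020201 (right) at 0, 0.5, and 5 μg/ml of LECT2 (x axis), with circles for first-scan arrays, squares for second-scan arrays, and bars for the mean ± SD of 3 arrays. The second-scan arrays at 0 and 0.5 μg/ml are the lowest of their dose for both probes, and the 3 arrays at 5 μg/ml lie above the other 6.

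Over the 100 members the first step ran from 0.51 to 2.19 with a median of 0.66, which is 1.58-fold, and only 4 members had a first step of at least 1. The second step ran from 0.54 to 3.73 with a median of 1.28, or 2.42-fold, and 69 members had a second step of at least 1. The second step was the larger one in 96 members and at least 2 times the first in 35. Over all 9 arrays the 10-fold increase of the dose from 0.5 to 5 μg/ml thus carried most of the rise of most members. Without replicate 2 at 0.5 μg/ml the order of the medians was reversed, with 1.07 for the first step and 0.86 for the second. Within the first scan alone they were 0.66 and 0.86. The share of the whole rise that was reached at 0.5 μg/ml had a median of 36.4% (17.8% to 57.2%). The whole rise between 5 and 0 μg/ml had a median of 1.94, or 3.85-fold, and ran from 1.08 to 5.92. It was at least 2 in 44 members and at least 3 in 9. Over all expressed probes the median first step was 0.05 and the median second step 0.00.

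The members ranked 1 to 10 by their smaller step had a median rise of 2.98 between 5 and 0 μg/ml, those ranked 11 to 50 one of 1.97, and those ranked 51 to 100 one of 1.70. This order follows from the rule. The ranks go by the smaller step, which is the first step in 96 members, so the narrow range of the first step within them is also set by the rule. In ranks 11 to 50 the second step ran from 0.72 to 2.60. The last member had steps of 0.51 and 0.73, and the first probe outside the list had steps of 0.54 and 0.51, so no gap in the values marks the end of the list. The 445 probes that passed both minimum steps without being members had medians of 0.37 for the first step and 0.62 for the second, with 37.3% of the rise at 0.5 μg/ml.

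**Figure D2:**
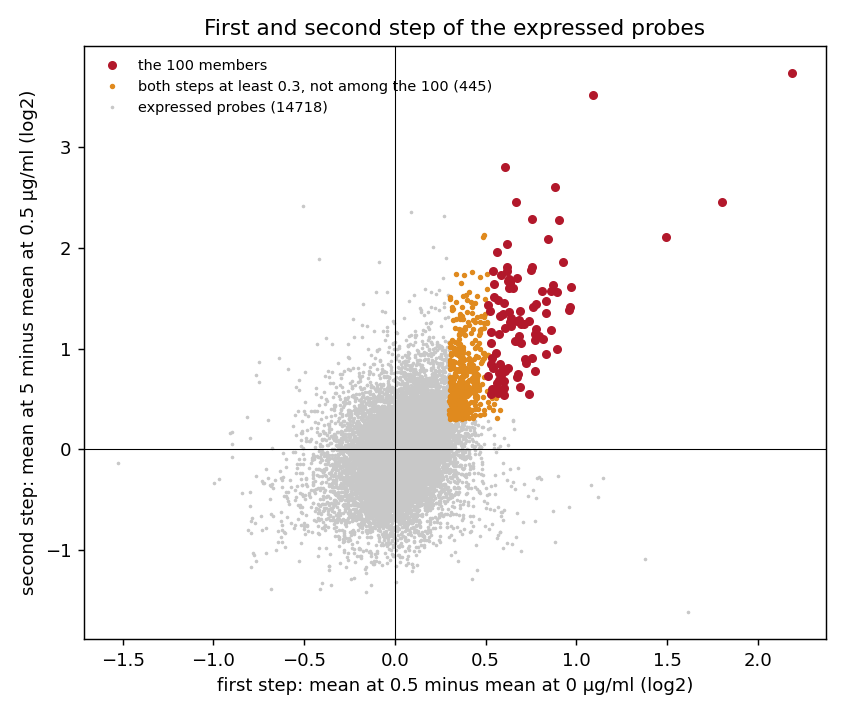
First step (x axis, log2, 0.5 minus 0 μg/ml) against second step (y axis, log2, 5 minus 0.5 μg/ml) for the 100 members (red), the 445 other probes with both steps at least 0.3 (orange), and all 14718 expressed probes (grey). The members form the upper right edge of one continuous cloud, and 96 of the 100 have the larger second step.

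Other patterns of dose were set beside this one by the same measures. Both steps were at most −0.3 for 256 expressed probes, against 545 with both at least 0.3. A second step of at least 0.3 was found for 2972 expressed probes (20.2%) and a first step of that size for 977 (6.64%). A first step within 0.1 of 0 followed by a second step of at least 0.3 was found for 824 probes (5.60%), more than had both steps. The reverse shape, a first step of at least 0.3 with a second step within 0.1 of 0, was found for 110 probes (0.747%). A first step of at least 0.3 that was followed by a fall of at least 0.3 was found for 129 probes. The count with both steps at least 0.3 moved with the scaling between arrays. It was 280 when the 75th percentile was taken over the probes that passed background on all 9 arrays and 1668 with the median of each array. The other counts, with both steps at most −0.3 among them, were not taken under other scalings.

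At 0 μg/ml the members were spread over the range of the array, with normalized log2 intensities from −1.01 to 7.70 and a median of 1.52. At that dose 19 members were below the 75th percentile of the array and 22 were at least 3 above it. At 5 μg/ml the lowest member was at 0.23 and the highest at 9.60. All members were measured on all 9 arrays by the rule, so none of these changes rests on a signal at background. Their spots were spread over the array, with 28 at the upper left, 22 at the upper right, 29 at the lower left, and 21 at the lower right. Only 4 pairs of members had consecutive probe numbers, and whether such probes belong to the same gene is not given in the files. Over all 9 arrays, 4200 consecutively numbered pairs of expressed probes had a median correlation of 0.21, against 0.11 for 13718 pairs that lay 1000 places apart in the same order. These correlations are over 9 arrays that share their scans and doses.

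On the single arrays, the median level of the members was 1.95, 0.58, and 1.85 in replicates 1 to 3 at 0 μg/ml. It was 2.48, 1.42, and 2.79 at 0.5 μg/ml and 3.92, 3.33, and 3.46 at 5 μg/ml. The 3 arrays at 5 μg/ml were the highest, while the lowest array at 0.5 μg/ml, replicate 2, lay below replicates 1 and 3 at 0 μg/ml. The median of all expressed probes ran from 1.21, in replicate 2 at 0 μg/ml, to 1.52, in replicate 3 at 0.5 μg/ml. On the second-scan arrays it was 1.21, 1.37, and 1.45 at 0, 0.5, and 5 μg/ml, and on the first-scan arrays 1.42 to 1.52. The highest of the 9 arrays was one at 5 μg/ml for all 100 members, and the lowest was replicate 2 at 0 μg/ml for 87.

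**Figure D3:**
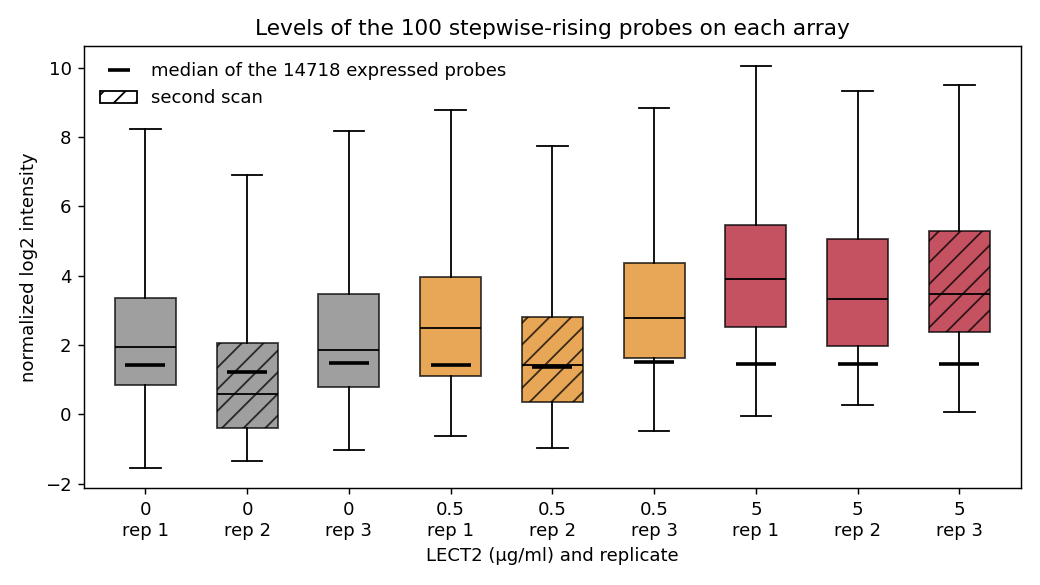
Normalized log2 intensity (y axis) of the 100 members on each of the 9 arrays (x axis, dose in μg/ml and replicate), with boxes from the first to the third quartile, a line at the median, and whiskers to the lowest and highest member. Hatched boxes are second-scan arrays and thick dashes the median of the 14718 expressed probes, which ran from 1.21 to 1.52. The members' medians went up with dose within each scan.

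The arrays of 2 doses did not overlap in most members at the high dose only. The lowest array at 5 μg/ml was above the highest at 0 μg/ml in 96 members, beside 16.0% of all expressed probes. It was above the highest array at 0.5 μg/ml in 70 members, beside 6.93%. The lowest array at 0.5 μg/ml was above the highest at 0 μg/ml in 19 members, beside 1.99%. All 9 arrays fell in the order of the doses with no overlap in 17 members, beside 0.639% of expressed probes (94 of 14718). The rule used these contrasts, so nothing is read from the higher shares of the members.

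The rule used the same contrasts that limma tests, so the counts of members called are set in part by their choice and nothing is read from them. In limma over 19995 probes, those with a signal well above background on the 3 arrays of at least 1 dose, 40 members were called higher at 5 than at 0 μg/ml at an adjusted p under 0.05, beside 0.980% of all probes tested. For 5 against 0.5 μg/ml 7 members were called, beside 0.175%, and for a change at any dose 17, beside 0.415%. For 0.5 against 0 μg/ml limma called 0 members, with 0% of all probes. An unadjusted p under 0.05 was found for 21 members, beside 231 of the 19995 probes. This fit has no block. With the replicate number as a block, also at 5 μg/ml, the counts were 93 for 5 against 0 μg/ml and 40 for 5 against 0.5 μg/ml. Beside these, 824 and 227 of all 19995 probes were called higher. For 0.5 against 0 μg/ml the count was 0 members, beside 0 probes, and for any dose 75, beside 513 probes. The 40 members are 41.2% of the 97 expressed probes called higher at 5 than at 0 μg/ml. Of the other 57 such probes, 39 also had both steps at least 0.3, and none had a first step below 0. Without replicate 1, 2, or 3 at 0 μg/ml, 13, 22, and 16 members were called for 5 against 0 μg/ml. Beside these, 53, 102, and 63 of all 19995 probes were called higher. Without 1 array at 5 μg/ml, in the same order, the counts were 9, 12, and 14, beside 26, 42, and 36 of all probes. Without 1 array at 0.5 μg/ml they were 28, 57, and 48, beside 156, 317, and 245.

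The same steps were then read on arrays that did not choose the probes. For this the rule was applied to the 6 arrays of the first scan alone, where 320 expressed probes had both steps at least 0.3, and the 100 with the largest smaller step were read on the 3 arrays of the second scan. Of these 100 probes, 67 are members. On the second scan 80 of the 100 had both steps above 0, beside 41.8% of all expressed probes, and 61 had both steps at least 0.3, beside 11.0%. The second step was above 0 in 94 of the 100, beside 53.5% of expressed probes, with a median of 1.94 (quartiles 1.48 and 2.70) beside 0.05. The first step was above 0 in 85, which is near the 76.4% of all expressed probes, with a median of 0.50 (quartiles 0.20 and 0.81) beside 0.19. In this readout the second step of the chosen probes was far above that of all expressed probes, and the first step stood out less. The array at 0.5 μg/ml read here was the lowest of its dose in 81 of the 100, which enlarges the second step and lowers the first. The array at 0 μg/ml read here was also the lowest of its dose in 81, which enlarges the first step. Beside these, the shares of expressed probes were 48.7% at 0.5 μg/ml and 62.0% at 0 μg/ml. All 100 probes are read on the same 3 arrays, so they are not independent of each other. The median first step of all expressed probes there, 0.19, was 0.09 with quantile normalization and 0.49 with median scaling. Of the 20 probes without both steps above 0, 14 lacked the first step, 5 the second, and 1 both. The second scan has 1 array per dose, so these are counts with no test.

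**Figure D4:**
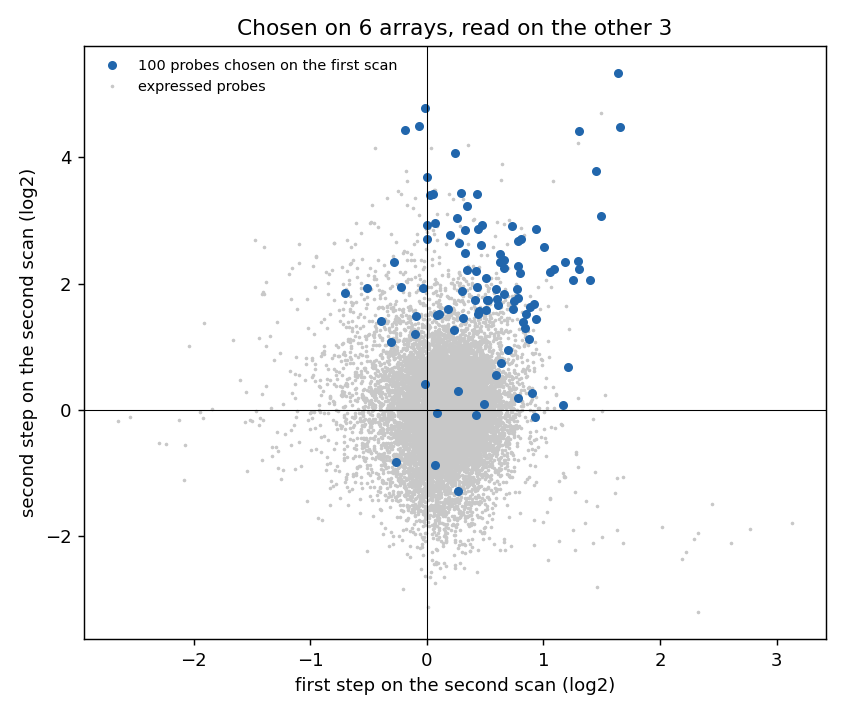
First step (x axis, log2) against second step (y axis, log2) on the 3 second-scan arrays, for the 100 probes chosen on the 6 first-scan arrays (blue) and all expressed probes (grey). Of the chosen probes 94 lie above 0 on the y axis and 85 above 0 on the x axis.

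With the scans exchanged, 1622 expressed probes passed on the second scan, and 83 of the 100 taken had both steps above 0 on the first scan, beside 3674 of the 14718 expressed probes, and 50 had both at least 0.3, beside 2.17%. The first step was above 0 in 88 of these, beside 47.9%, with a median of 0.32, and the second in 94, beside 48.0%, with a median of 0.85. In this direction the share with a first step above 0 thus stood out much as that of the second did. Both lists shared 30 probes, which is 30.0% of each. Both lists come from the expressed probes, whose filter uses all 9 arrays. With that filter set on the 6 first-scan arrays alone, an alternative chosen after seeing the data, 79 of the 100 had both steps above 0 on the second scan.

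Probes of 2 other shapes were chosen on the first scan and read on the second in the same way. Of the 100 with the largest fall at both steps, out of 298, 38 fell at both on the second scan, beside 11.9% of all expressed probes. Of the 100 with a flat first step, within 0.1 of 0, and the largest second step, out of 1103, only 48 had a second step above 0 on the second scan, beside 53.5%, with a median of −0.03. Their first step was above 0 there in 94, with a median of 0.51, beside 76.4% of expressed probes and a median of 0.19. On the second scan the second step was thus above 0 in 48 of these 100 probes and in 94 of the 100 stepwise ones. The first step was above 0 in 94 of these and in 85 of the stepwise ones, with medians of 0.51 and 0.50. It therefore did not set the stepwise probes apart from these on that scan. The second-scan array at 0.5 μg/ml was the lowest of its dose in 81 of those stepwise probes, beside 48.7% of expressed probes. A low array there enlarges the second step on that scan and lowers the first. The same share was not taken for the probes with a flat first step, so these counts do not decide between the shapes. The difference between these lists was not tested, since each is read on 1 array per dose.

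The members also shared a difference between arrays of equal dose. Replicate 2 was the lowest array at 0 μg/ml in 90 members, beside 62.0% of expressed probes, and the lowest at 0.5 μg/ml in 83, beside 48.7%. It was the lowest at both doses in 82. The rule favours a low array at 0 μg/ml, which enlarges the first step. A low array at 0.5 μg/ml enlarges the second step but lowers the first, which is the smaller step in 96 members. High values of replicates 1 and 3 at 0.5 μg/ml enlarge the first step and also leave replicate 2 the lowest. At that dose 77 members lay above their dose mean on replicate 1 and 91 on replicate 3. The part of the choice in this difference was not tested. The second-scan array minus the mean of the first-scan arrays, averaged over 0 and 0.5 μg/ml, had a median of −1.19 over the members (quartiles −1.63 and −0.57), beside −0.24 over all expressed probes. It was below 0 in 88 members, beside 62.3%.

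The same values, a measure chosen after seeing the data, were taken for the 100 probes chosen on the first scan alone, where the second-scan arrays had no part in the choice beyond the filter on dim and outlier spots. There the median was −1.01 (quartiles −1.48 and −0.41), and 83 probes were below 0. At 5 μg/ml the median difference between the scans was −0.05 over the members and −0.03 over the probes chosen on the first scan, beside −0.13 over all expressed probes. It was below 0 in 56 members and in 53 of the probes chosen on the first scan, beside 61.9%. The second scan has 1 array per dose, so these differences were not tested. Scan and experiment cannot be told apart here, since the arrays of 1 dose come from separate experiments on different fish. The local background of the members' spots was 56.5 to 60.0 intensity units on the second-scan arrays and 31.0 to 43.0 on the first-scan arrays, with nearly the same values over all expressed probes. Its part in the difference was not tested.

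**Figure D5:**
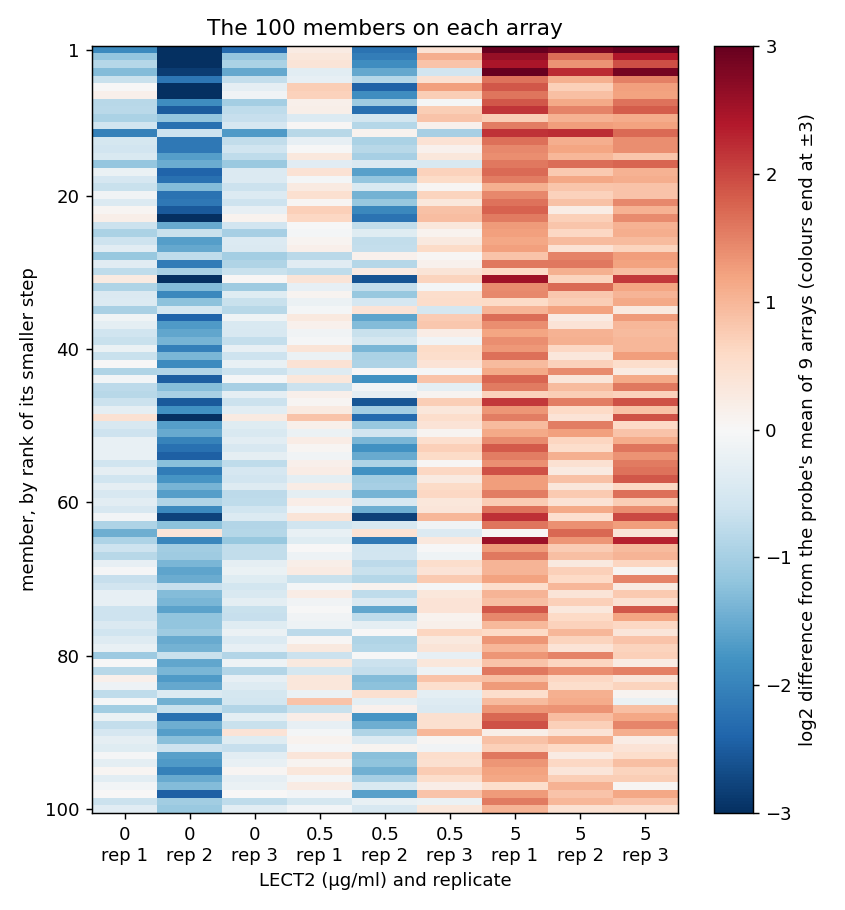
Difference of each of the 100 members (rows, by rank of the smaller step) on each of the 9 arrays (columns, dose in μg/ml and replicate) from its own mean of 9 arrays, on the log2 scale, with colours that end at ±3. The column of replicate 2 at 0 μg/ml is the lowest for 87 members, replicate 2 at 0.5 μg/ml resembles the arrays at 0 μg/ml more than its own dose, and the 3 columns at 5 μg/ml are the highest.

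The spread within a dose was larger for the members than for all expressed probes, and larger at 0 and 0.5 than at 5 μg/ml. The choice by the smaller step also favours probes in which single arrays at 0 μg/ml lie low. A low array at 0.5 μg/ml lowers the first step, and a high one there enlarges it. The SD of the 3 arrays had a median over the members of 0.68 at 0 μg/ml and 0.69 at 0.5 μg/ml, but of 0.36 at 5 μg/ml. Over all expressed probes the medians, in the same order of doses, were 0.34, 0.37, and 0.25. The SD was smaller at 5 than at 0 μg/ml in 80 members, beside 59.8% of expressed probes. Over the 4950 pairs of members, the deviations of the 9 arrays from their dose means had a median correlation of 0.81, beside 0.10 for pairs of expressed probes, of which every 9th was taken. Without replicate 2 at 0 and 0.5 μg/ml it was 0.52, beside 0.07, over 7 arrays. The correlations are a description, since all pairs share the same arrays. The part of the choice of the members in these correlations was not tested.

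The sizes of the steps differed between the scans and with the arrays used. Within the first scan the members' median steps were 0.66 and 0.86, and on the second scan 0.76 and 1.91. The second step was larger on the second scan in 82 members, beside 53.1% of expressed probes, and the first step in 55, beside 74.6%. Without replicate 2 at both 0 and 0.5 μg/ml, all 100 members had both steps above 0 and 92 had both at least 0.3. Their median steps were 0.66 and 0.86, beside −0.01 and −0.04 over expressed probes. The arrays kept in each such reading also chose the members, so the choice favours these counts and they are a description. Without replicate 2 at 0 μg/ml alone the median first step was 0.29, and 87 members had both steps above 0, while 48 had both at least 0.3. Without replicate 2 at 0.5 μg/ml alone it was 1.07, with a median second step of 0.86. Without replicate 3 at 0.5 μg/ml it was 0.42. When the rule was applied anew, 31 of the members were found again among the first 100 without replicate 2 at 0 μg/ml, 54 without replicate 2 at 0.5 μg/ml, 48 without replicate 1 and 50 without replicate 3 at 0.5 μg/ml.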

How the data were processed

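The authors extracted each array with Agilent Feature Extraction 10.7.3.1 (submitters' processing notes) and deposited the spot intensity, background-subtracted and detrended within the array, with marks for spots well above background and outlier spots. A deposited table of the authors' own intensity values equals the processed intensity times 1 constant per array (0.754 to 1.36) up to a highest value per column, with a median of 37 in every column. It served as an alternative. Doses follow titles and treatments. One label field that gives 0 μg/ml for all samples and an extraction protocol for plant material were not used.

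From the deposited intensity the log2 was taken and the array's 75th percentile over 49077 probes subtracted. Outlier spots and 1319 control spots were left out. Each probe has 1 spot. Steps and members were computed with pandas 2.3.3, and limma 3.58.1 in R 4.3.3 was fitted to 9 arrays with moderated variances, two-sided, with Benjamini-Hochberg adjustment over 19995 probes. The fit was tested on simulated data with independent noise for each probe and array, so deviations that arrays share were not covered. The number of arrays limits the precision. Members and measures were chosen with earlier results of these data known. The rule for names was the 2 members with the largest smaller step, since no probe is paired with a gene. The gene and cell marker lists that had been written were therefore not run, and no sequences are shown.

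Between 0.5 and 0 μg/ml, arrays with the same replicate number deviated together from their dose means (r = 0.38, 0.81, and 0.68 over 19806 probes). Replicate 3 at 0.5 μg/ml also deviated with replicate 1 at 0 μg/ml (r = 0.55), above the 0.38 of the arrays numbered 1, and the arrays numbered 2 share the second scan, so these correlations follow the scans too. The fit above has no block, and an alternative took the replicate number as a block over all 9 arrays. Between 5 and 0 μg/ml, equal numbers gave r = 0.41, 0.15, and −0.11. Between 5 and 0.5 μg/ml they gave r = 0.41, 0.24, and −0.04, and replicate 2 at 5 μg/ml is a first-scan array. Counts with that block therefore rest on a pairing with 5 μg/ml that these values show less clearly. Alternatives were other scalings and filters, the authors' values, blocks for replicate and scan, a variance trend, fewer arrays, and other minimum steps or medians in the rule. The paper does not describe the LECT2 exposure.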

Additional observations from a re-analysis of the deposited data

How the results depend on the processing

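Counts of members called are given for 5 against 0, 5 against 0.5 and any dose. They were 40, 7, and 17, beside 196 and 35 of 19995 probes called higher and 83 called for any dose. With the replicate block they were 93, 40, and 75, beside 824, 227, and 513 probes. With or without the replicate block, the count for 0.5 against 0 stayed at 0 members in limma under all 22 alternatives. An unadjusted p under 0.05 was found for 7 to 68 members, beside 59 to 664 of all probes tested. The scan as a block gave 76, 14, and 43, beside 575, 80, and 292 of all probes. Normexp background correction gave 12 and 30 for the last 2 comparisons, beside 43 and 127. No filter on dim probes gave 7, 0, and 2, beside 20, 0, and 11 of 49077 probes. For that 0, 59 members were below 0.05 before adjustment, beside 2592 probes. The arrays of the first scan gave 0 and 8 for the last 2, beside 0 and 22. For that 0, 61 members were below 0.05 before adjustment, beside 3039 probes. The fit without replicate 2 at 0 and 0.5 μg/ml gave 36 for any dose, beside 202. Median scaling and the authors' values each gave 3 for 5 against 0.5, each beside 20 of all probes. With 1 array left out at a time, the counts ran from 9 to 57, from 0 to 6, and from 1 to 39. Over all probes they ran from 26 to 317 and from 0 to 62 called higher, and from 6 to 192 for any dose. The number of expressed probes with both steps at least 0.3 was 545. It was 1668 with median scaling, 1659 on the authors' values, 280 when the 75th percentile used the probes that passed background on all 9 arrays, 953 with a filter on 1 dose or more, 313 with medians of the 3 arrays, 320 on the first scan alone, 324 without replicate 2 at 0 and 0.5 μg/ml, and 262 to 1181 leaving out each array. A minimum step of 0.2 or 0.5 gave 1345 or 109 by construction. The members found again were 26 with the filter on 1 dose or more, which admits more probes, 63 with medians and 31 to 97 leaving out each array, and at least 67 under the other alternatives. The probes chosen on 1 scan with both steps above 0 on the other numbered 70 to 92 over 7 alternatives, beside 21.0% to 64.2% of expressed probes. The exchange of the scans is among these alternatives, and the others chose on the first scan. Other causes were not tested. Scaling by the median of each array moved the median step of expressed probes on the second scan to 0.49 and 0.32. Signal over background limits the list to probes bright on all arrays.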
